A study of Mus musculus with 9 samples.

Results

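The MHC class I presentation genes were followed through single-cell RNA sequencing of the mouse brain, with 10 genes chosen by their known role out of 32287 genes in the count matrices. They are the classical heavy chains H2-D1 and H2-K1, the light chain B2m, the peptide transporter subunits Tap1 and Tap2 with the loading factor Tapbp (tapasin), the immunoproteasome subunits Psmb8, Psmb9 and Psmb10, and the transcriptional regulator Nlrc5. No measured value was used to choose them, although the choice was made with earlier results of these data known. Their levels are given as CPM, the UMIs of a gene (unique molecular identifiers, each standing for 1 captured transcript) in every 1e+06 UMIs of the same cells. Where 4 values are listed for a class, they run from WT young through WT old and KO young to KO old, groups that are defined further on.

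MHC class I molecules display peptides from inside a cell to CD8 T cells. The proteasome cuts proteins into peptides, the TAP transporter carries them into the endoplasmic reticulum, tapasin helps load them onto a heavy chain, and the heavy chain needs B2m to reach the cell surface. Interferons raise most genes of this chain, and interferon also exchanges the constitutive catalytic subunits Psmb5, Psmb6 and Psmb7 for their inducible counterparts Psmb8, Psmb9 and Psmb10. In the healthy brain, microglia and vessel cells are known for their class I expression, and neurons and their precursors for little of it.

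The study asked how interferon receptors shape the neural stem cell lineage in the young and the ageing brain. All mice were males of the TiCY line, in which a Tlx (Nr2e1) promoter drives Cre/ERT2, so that tamoxifen switches on eYFP in Tlx-expressing cells and their progeny, and the line also carries the allele Fastm1Cgn. The WT groups held mice of 16 weeks (WT young, tamoxifen at 10 weeks and a chase of 6 weeks) and of 80 weeks (WT old, tamoxifen at 71 weeks and a chase of 9 weeks). The KO groups additionally lacked the type-I and type-II interferon receptor subunits Ifnar1 and Ifngr1, and held mice of 16 weeks (KO young, tamoxifen at 7 weeks) and of 92 to 105 weeks (KO old, tamoxifen at 85 and 98 weeks), both with a chase of 9 weeks. For KO old the labelled tamoxifen ages and chase do not add up to the labelled age, so its exact age is uncertain. The old KO mice were therefore older than the old WT mice. The tissues were the vSVZ (ventricular-subventricular zone, a stem cell niche) and the remaining brain parts sampled (RoB, namely striatum, rostral migratory stream and olfactory bulb). The sort left out cells positive for CD45, Ter119 or O4, so the microglia measured here are those that passed a sort against CD45. Each group was 1 sequencing reaction of 2 mice that were told apart by hashtag antibodies, so group and reaction cannot be told apart.

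The 4 libraries held 27096070 to 78028524 UMIs, and 18051 cells were kept after filtering and removal of 339 doublets. Median depth was 5024.5 UMIs per cell in WT young and 7057 to 7393 in the other libraries. A hashtag gave 5810 cells a mouse and a tissue, which is 20.4% to 21.5% of cells in the young libraries and 53.1% to 60.4% in the old ones. The libraries shared 30 cell barcode sequences. Cells were clustered without the 10 genes, without the related gene lists and without a list of interferon response genes, and were named from marker genes. The deleted receptor genes followed the labels: Ifngr1 had 612 and 697 UMIs in the quiescent cells of WT young and WT old, against 49 and 40 in KO young and KO old, which held more UMIs in all, and Ifnar1 had 179 and 225 against 90 and 55.

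The loci are given on GRCm38. In RefSeq (GRCm38.p6), 8 members have a promoter window of 250 bases before to 50 after the start, and Tap2 and Nlrc5 are only named. On chromosome 17, in the MHC or beside it, lie 7 members, with H2-K1 at chr17:33996017-34000347, Tapbp at chr17:33915899-33929292 and H2-D1 at chr17:35262730-35267499. Psmb9 (chr17:34181987-34187764), Tap1 (chr17:34187553-34197225), Psmb8 (chr17:34197721-34201454) and Tap2 (chr17:34203527-34216321) follow each other there. B2m lies at chr2:122147686-122153083, Psmb10 at chr8:105935735-105938444 and Nlrc5 at chr8:94434356-94527272. Tap1 and Psmb9 are transcribed away from each other, and their promoter windows share 275 bases.

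The stretches below hold the letters of known interferon or immune elements and are shown because the genes that follow were compared between mice with and without interferon receptors. Capitals mark the match, each stretch runs 5′ to 3′ on the strand of the gene, and both strands were searched.
H2-D1, chr17:35262935-35262962, plus strand: tctcctcagTTTCACTTCtgcacctaac
H2-K1, chr17:34000419-34000446, minus strand: tctccacagTTTCACTTCtgcacctaac
B2m, chr2:122147539-122147566, plus strand: taagaacatGAAACTGAAaatgggaaag
B2m, chr2:122147553-122147580, plus strand: tgaaaatggGAAAGTCCCtttgtaacct
Psmb8, chr17:34198089-34198116, plus strand: cctccgctgTTCCCAGAAgatgcccccc
The H2-D1 and H2-K1 stretches were identical at 27 of 28 bases and hold GAANNGAAA on the opposite strand, a spelling added after the sequences were seen and present in 7.52% of the 32851 mouse promoter windows. The first B2m stretch holds GAAANNGAA, the core of the interferon-stimulated response element, which 8.56% of windows hold. The second, which overlaps the first, holds the kappa-B type site GGGACTTTC on the opposite strand, which 0.353% of windows hold. The Psmb8 stretch holds TTCNNNGAA, the letters of a gamma-activated site, which read the same on both strands and occur in 8.30% of windows.

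The MHC class I promoter is also known for an X2 and a Y box, through which Nlrc5 acts together with DNA-bound factors. The X2 core TGACG occurred in 5 of the 8 member windows (H2-D1, H2-K1, B2m, Tap1 and Psmb9) and in 20.8% of all windows. The Y core CCAAT occurred in 6 of the 8 (those 5 and Tapbp) and in 37.4% of all windows. For Tap1 and Psmb9, whose windows overlap, the X2 match is the same bases, and so is the Y match. Each was counted for both genes. The pair of H2-D1 stretches with these cores follows.
H2-D1 X2 core, chr17:35262982-35263009, plus strand: cgggacactgaTGACGcgctggcaggtc
H2-D1 Y core, chr17:35263030-35263057, plus strand: gattccaggagCCAATcagcgtcgccgc
Psmb8 and Psmb10 held neither core in their windows. These matches are letters only, and binding was not measured.

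Microglia-like and endothelial-like cells held the highest class I levels in every library, and neuroblast-like and transit-amplifying progenitor (TAP)-like cells the lowest. The 10 genes summed to 2677, 2969, 1727 and 1827 CPM in microglia-like cells and to 2166, 3525, 1240 and 1525 CPM in endothelial-like cells. Olfactory ensheathing glia-like cells, the glia that wrap the olfactory nerve, followed at 873, 855, 545 and 686 CPM. Quiescent neural stem cell (NSC)-like cells, a class that in these data also takes in astrocytes, held 393, 484, 369 and 445 CPM. Neuroblast-like cells stood at 63 to 67 CPM in all 4 libraries. Counts of cells limit the small classes: 14 to 40 endothelial-like and 11 to 39 oligodendrocyte precursor (OPC)-like cells per library, and 43 microglia-like cells in each old library, fell under the 50 set for a level, and their values carry counting error only.

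**Figure D1:**
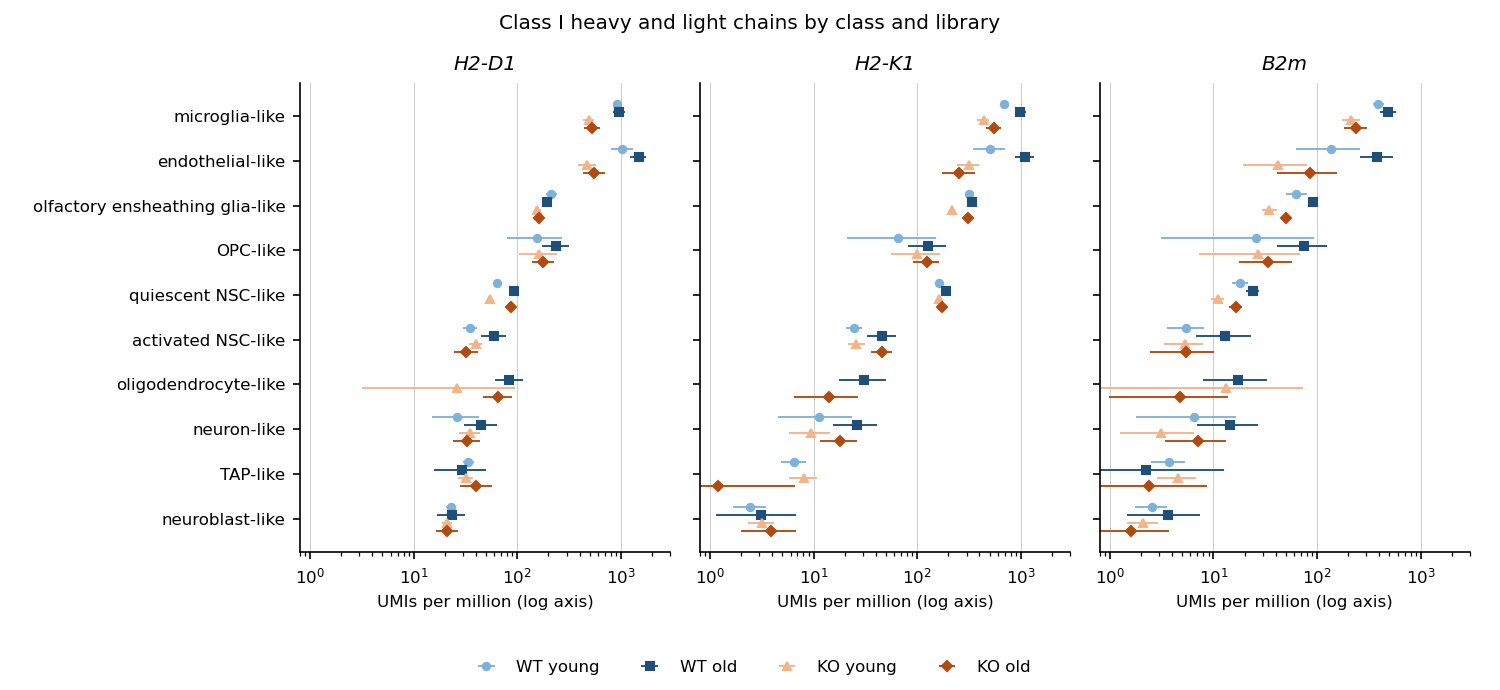
Level of H2-D1, H2-K1 and B2m (CPM, log axis) by cell class, 1 point per library with its 95% exact Poisson interval, where values of 0 are left out. By the median of the libraries, microglia-like and endothelial-like cells hold the highest levels of all 3 genes, and neuroblast-like and TAP-like cells the lowest, at 22 CPM for H2-D1 in neuroblast-like cells.

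H2-D1, a classical heavy chain, measured 912, 958, 491 and 529 CPM in microglia-like cells, with a 95% exact Poisson interval of 843 to 985 CPM in WT young. Both KO libraries lay below both WT libraries. Its medians over the 4 libraries then ran from 792 in endothelial-like cells and 720 in microglia-like cells through 178 in olfactory ensheathing glia-like, 169 in OPC-like and 75.0 in quiescent NSC-like cells down to 22 in neuroblast-like cells. The library ranges of endothelial-like and microglia-like cells overlapped, as did those of olfactory ensheathing glia-like and OPC-like cells, whereas microglia-like and olfactory ensheathing glia-like cells did not.

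H2-K1, the other classical heavy chain, was near 0 in neuroblast-like cells. Its medians were 622 CPM in microglia-like, 407 in endothelial-like, 316 in olfactory ensheathing glia-like and 169 in quiescent NSC-like cells, then 35.7 in activated NSC-like and 3.13 in neuroblast-like cells. The library ranges of the quiescent and activated NSC-like classes did not overlap for H2-K1 (161 to 188 against 24.8 to 45.8 CPM). B2m had medians of 315, 111, 56.9 and 17.3 CPM in microglia-like, endothelial-like, olfactory ensheathing glia-like and quiescent NSC-like cells, and of 2.32 CPM in neuroblast-like cells. H2-D1 and H2-K1 are close paralogs, and reads they share with each other or with other class I genes may be split or dropped in counting, so their separate values are uncertain.

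The transport genes were present in glia and low in progenitors. Tap2, whose product forms the transporter with that of Tap1, had medians of 97.7 CPM in microglia-like, 62.2 in olfactory ensheathing glia-like and 50.3 in quiescent NSC-like cells, against 8.15 in activated NSC-like and 0.898 in neuroblast-like cells. Tap1 stood at 35.4, 10.2, 7.82, 2.04 and 0.170 CPM in the same 5 classes. Tapbp ran from medians of 146 CPM in endothelial-like and 144 in microglia-like cells to 17.4 in neuroblast-like and 13.4 in TAP-like cells, so that every class held it.

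Nlrc5, the class I regulator, was at or near 0 in nearly every class. The 21 endothelial-like cells of WT old held 3 UMIs of it (35.6 CPM), and its highest microglia-like level was 7.82 CPM, from 2 UMIs in WT old. Quiescent NSC-like cells held 0, 7, 1 and 2 UMIs of it, and the 0 of WT young allows up to 0.436 CPM. Nlrc5 had too few UMIs for the fits of age and genotype, and its tests between classes and tissues did not pass.

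**Figure D2:**
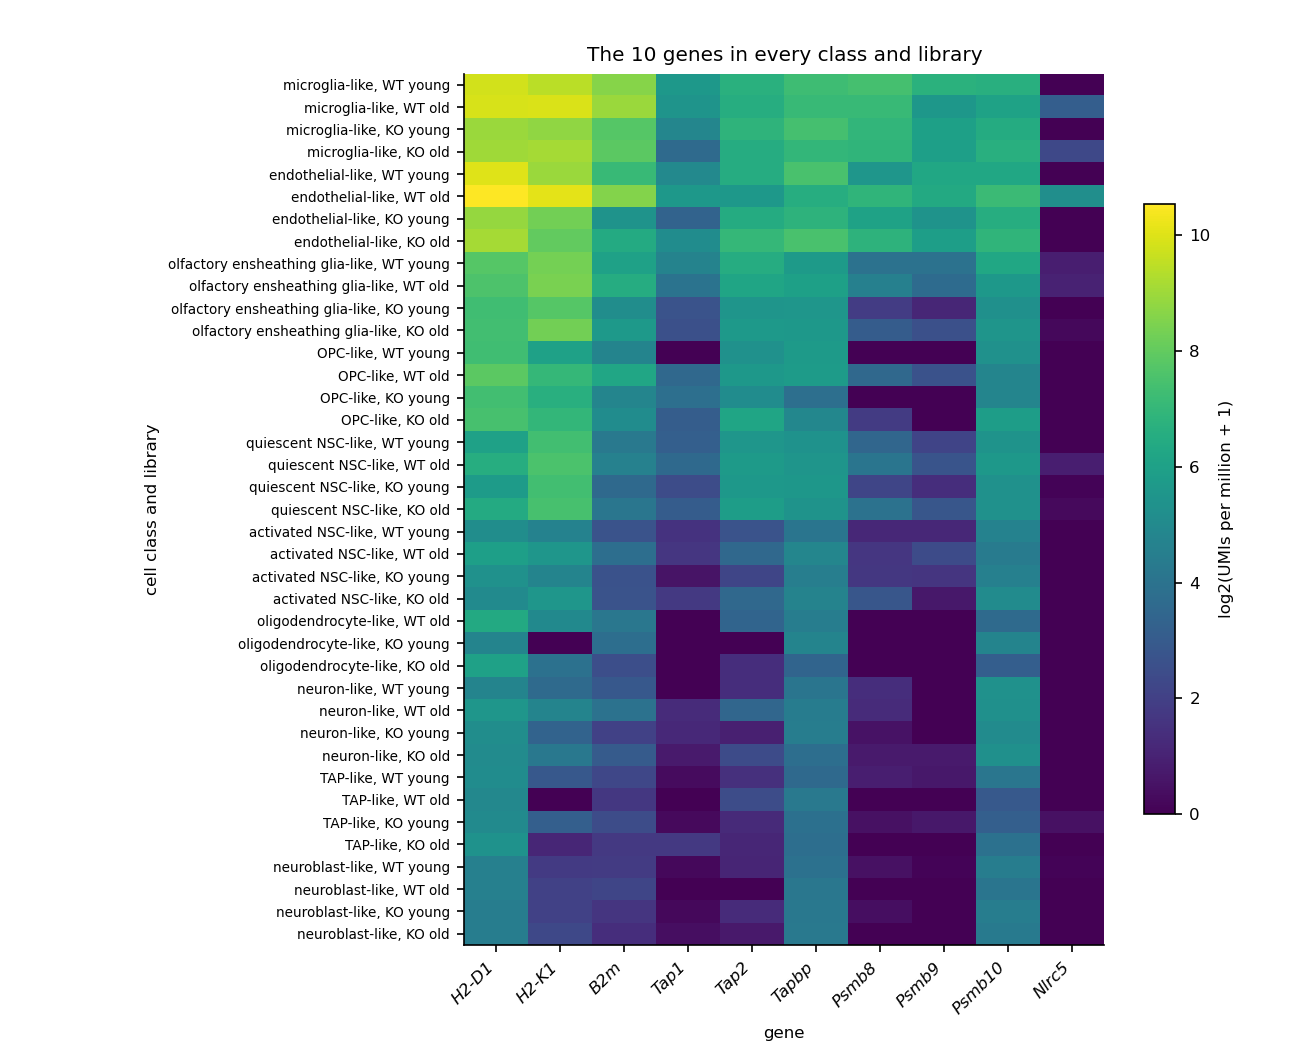
Heat map of the 10 genes (columns) by cell class and library (rows), coloured by log2(CPM + 1). The level falls from microglia-like and endothelial-like cells to neuroblast-like cells for 9 genes, and Nlrc5 is at or near 0 in nearly every row.

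Within mice, class differences were tested on log2(CPM + 5) by an exact permutation test (two-sided, flipping the sign of each mouse's difference) over mice with at least 20 cells of both classes, with Benjamini-Hochberg adjustment over 40 tests. Of these, 26 passed at 0.05, and 0 passed without any 1 of the mice except WT old mouse 2, or at a stricter hashtag posterior of 0.9, where fewer mice remain and the smallest p is larger. Microglia-like cells exceeded quiescent NSC-like cells of the same mouse for 9 of 10 genes in 6 of 6 mice (adjusted permutation p = 0.0481 each, from the smallest p that 6 mice allow, 0.03125). The log2 difference was 3.79 ± 0.16 (SD, n = 6) for B2m, 3.12 ± 0.44 for Psmb8, 2.97 ± 0.71 for Psmb9, 2.88 ± 0.44 for H2-D1 and 1.79 ± 0.42 for H2-K1. Differences were smaller for Tap2 (0.99 ± 0.29) and Psmb10 (0.83 ± 0.42), and Nlrc5 was higher in 2 of 6 mice.

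Neuroblast-like cells were lower than quiescent NSC-like cells for the same 9 genes in 8 of 8 mice (adjusted permutation p = 0.0260 each). H2-K1 was lower by a log2 difference of -4.77 ± 0.34 (SD, n = 8), Tap2 by -3.36 ± 0.27 and H2-D1 by -1.97 ± 0.45. In the activated NSC-like class, H2-K1 (-1.73 ± 0.91, n = 6), Tap2 (-2.26 ± 0.70), B2m, Tap1 and Tapbp were already lower in 6 of 6 mice (adjusted permutation p = 0.0481 each), and H2-D1, the immunoproteasome genes and Nlrc5 did not pass, although H2-D1 did with doublets kept (-0.78, adjusted permutation p = 0.0434). Hashtags were called in only 10.8% of neuroblast-like and 19.7% of activated NSC-like cells, so these tests rest on few of their cells.

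Olfactory ensheathing glia-like cells were higher than quiescent NSC-like cells of the same mouse for H2-D1 (1.09 ± 0.39, n = 8), H2-K1 (0.74 ± 0.19) and B2m (1.41 ± 0.24) in 8 of 8 mice (adjusted permutation p = 0.0260 each). The transport and immunoproteasome genes did not pass, with log2 differences from -0.16 for Psmb8 to 0.35 for Tap1. Tapbp passed at cluster resolutions 0.5 (0.39, adjusted permutation p = 0.0180) and 2 (0.29, adjusted permutation p = 0.0426), and Psmb9 at 0.5 (0.51, adjusted permutation p = 0.0408). Endothelial-like, oligodendrocyte-like and OPC-like cells were too few per mouse for this test. No difference between tissues passed: for none of 10 genes did the exact permutation test call a difference between quiescent cells of the vSVZ and astroglia of the same clusters in RoB, where the smallest unadjusted p was 0.039 for Psmb10 (0.26 ± 0.27, n = 8, adjusted permutation p = 0.3125) and the only other at or under 0.0625 was Tapbp.

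Near-empty barcodes of 5 to 100 UMIs give the level of free RNA. They held H2-K1 at 61.7, 176, 69.0 and 131 CPM, H2-D1 at 36.8 to 80.4 CPM and B2m at 9.19 to 41.1 CPM. The KO young values rest on 217533 UMIs, against 2625192 to 3739080 in the other libraries. Neuroblast-like cells lay below these values for H2-K1, H2-D1 and B2m, but in KO young the intervals overlapped for H2-D1 and B2m. Quiescent NSC-like cells reached at most 23.9 CPM of B2m in any library, under the near-empty 41.1 CPM of WT old. Their H2-K1 range, 161 to 188 CPM, took in the near-empty 176 CPM of WT old and lay above the other near-empty values. Their H2-D1 range, 54.1 to 92.9 CPM, overlapped the near-empty one. When every cell was thinned to 1000 UMIs, an H2-D1 UMI was found in 46.2% to 56.4% of microglia-like cells, 16.0% to 17.2% of olfactory ensheathing glia-like cells and 4.68% to 8.43% of the quiescent class. In neuroblast-like cells, the class with the lowest median H2-D1 level, it was 1.5% to 2.12%. Before thinning, the shares in the microglia-like class were 77.4% to 93.0% at median depths of 4710 to 6404 UMIs, and in neuroblast-like cells 8.99% to 13% at 4193 to 5764 UMIs.

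The immunoproteasome was prominent in microglia-like cells. Its subunits were read as a share of the UMIs of each inducible gene and its constitutive counterpart together, a measure that compares classes but is not a count of assembled proteasomes. Psmb8 made up 49.2% to 55.7% of the Psmb8 and Psmb5 UMIs in the microglia-like cells of the 4 libraries, and the highest share, in WT young, had a 95% Clopper-Pearson interval of 48.9% to 62.4%. The 4 intervals overlapped, but they cover counting error only, and a genotype difference in this share was not tested. In the edgeR fits described further on, Psmb8 itself was lower in young KO than in young WT microglia-like cells. Its log2 change of -0.63 (SE 0.30) did not pass (adjusted p = 0.609).

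In olfactory ensheathing glia-like cells the Psmb8 share was 3.39% in WT young and 6.82% in WT old (5.66% to 8.14%), against 0.789% in KO young (0.395% to 1.41%) and 2.30% in KO old. In quiescent NSC-like cells it was 3.53%, 7.02%, 1.5% and 6.16%. In both classes the WT library lay above the KO library of the same age, and the old library above the young one of the same genotype. For the old quiescent libraries the intervals overlapped (5.91% to 8.26% in WT and 5.26% to 7.17% in KO). In the quiescent class both old libraries also lay above both young ones. Neuroblast-like cells held 0.120% and 0.112% in the young libraries and 0 of 441 and 0 of 765 UMIs in the old ones. These shares also move with Psmb5. In the fits described further on, Psmb5 fell with age in WT quiescent cells of the vSVZ (log2 change -0.36) and was not called in KO.

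Psmb9, counterpart of Psmb6, was at 25.5% to 39.7% in microglia-like cells, 0.608% to 5.79% in olfactory ensheathing glia-like cells and 0.758% to 2.80% in the quiescent class. In both WT libraries the ensheathing glia lay above the quiescent class for Psmb9 (5.76% against 1.30% and 5.79% against 2.80%), whereas for Psmb8 the intervals of these classes overlapped in both WT libraries. Psmb10, counterpart of Psmb7, was also present outside microglia, with 60.7% to 74.3% in microglia-like, 38.6% to 55.9% in olfactory ensheathing glia-like cells, 32.9% to 37.5% in the quiescent class and 9.57% to 14.6% in neuroblast-like cells. The inducible subunits thus did not share 1 profile across classes. These intervals cover counting error only.

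**Figure D3:**
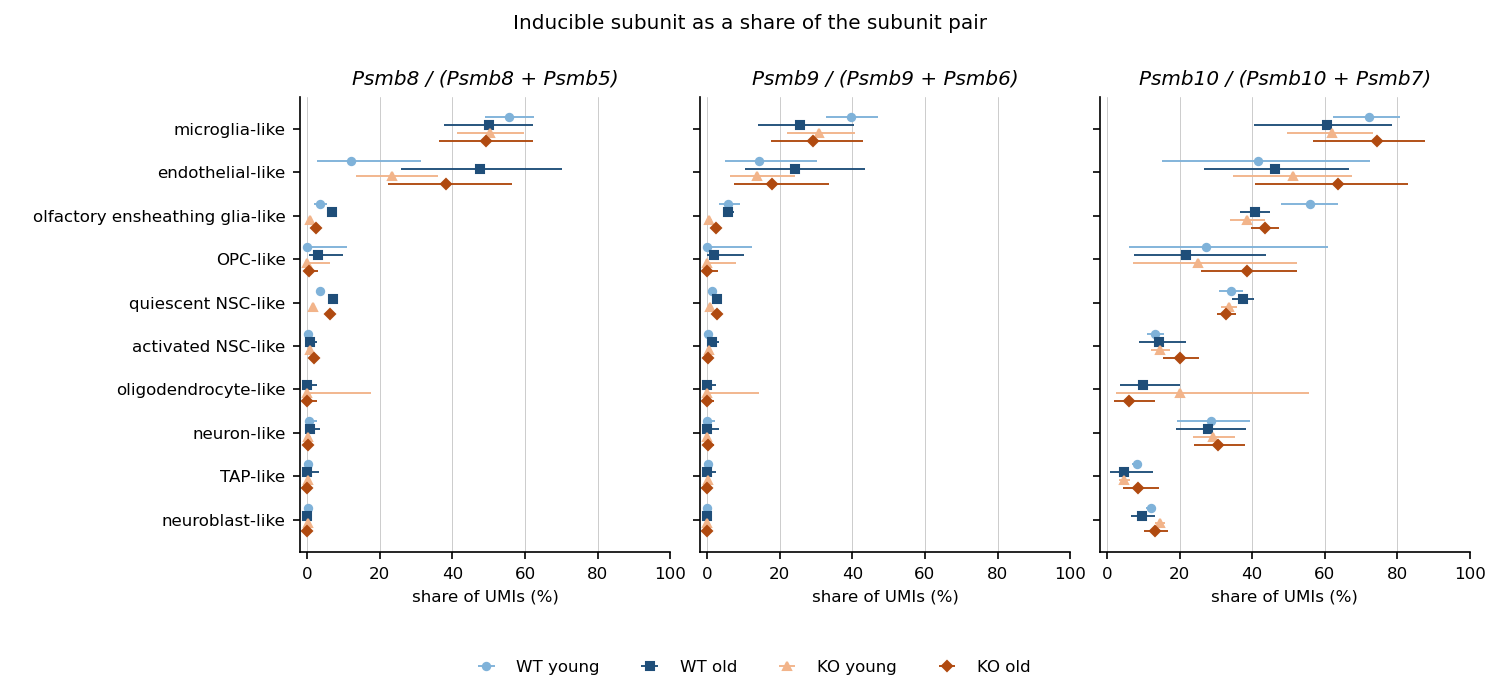
Share (%) of inducible subunit UMIs among inducible plus constitutive UMIs for the 3 subunit pairs, by class, 1 point per library with its 95% Clopper-Pearson interval. Psmb8 and Psmb9 are highest in microglia-like and endothelial-like cells, and the Psmb10 share is 32.9% to 37.5% also in quiescent NSC-like cells.

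Age and genotype were compared with edgeR's quasi-likelihood test on UMI sums per mouse, adjusted over all genes tested in a class (Benjamini-Hochberg, threshold 0.05), with 2 mice per group. In 23 such fits, which called from 0% to 15.8% of all genes tested, 7 of 152 member tests passed. DESeq2 called none of the 98 that it gave an adjusted p, and gave 54 none. The 7 calls came from quiescent NSC-like cells of the vSVZ, from olfactory ensheathing glia-like cells and from microglia-like cells, and all age calls were increases and all genotype calls decreases in KO. With so few mice, compared groups also lay apart for members that were not called. The share of all genes that lay apart in this way was not counted.

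In young microglia-like cells, H2-D1 fell to 0.507 and B2m to 0.517 of the WT level without interferon receptors. H2-D1 measured 1025 and 887 CPM in the WT young mice and 484 and 493 CPM in the KO young mice. B2m measured 497 and 368 CPM in WT young against 249 and 202 CPM in KO young. Both KO mice lay below both WT mice for either gene, as they did for H2-K1, Tap1, Psmb8 and Psmb9, which were not called. H2-D1 changed by a log2 value of -0.98 (SE 0.21, adjusted p = 0.00181) and B2m by -0.95 (SE 0.25, adjusted p = 0.0310), in a fit that called 0.638% of 4546 genes. Over 13 alternatives H2-D1 stayed between -1.06 and -0.91 and passed in 9, and B2m stayed between -1.17 and -0.75 and passed in 5. Both lost the call under DESeq2 and without WT young mouse 2, KO young mouse 1 or KO young mouse 2, and B2m also without WT young mouse 1, with doublets kept, with mitochondrial UMIs under 5% and with no low-count filter.

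H2-K1 was 803 and 672 CPM in WT young and 498 and 412 in KO young, which did not overlap, but its log2 difference of -0.73 (SE 0.22) did not pass (adjusted p = 0.105). Over the 9 members tested, 7 differences were negative and 2 positive, and the median was -0.73 against -0.0015 over all genes of the fit. The 2 positive ones, Tap2 (0.06, SE 0.33) and Tapbp (0.12, SE 0.29), lay within their error of 0. In the old libraries too few mice had 20 microglia-like cells for a test: H2-D1 was 982 (27 cells) and 916 CPM (16 cells) in WT old and 1168 (5 cells) and 464 CPM (38 cells) in KO old, so these mice overlapped.

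The microglia-like cells were checked for other immune cells. All 10 microglial markers had UMIs in them, summing to 31289 to 41709 CPM, and the 5 T and NK cell markers were at 0 in each mouse with at least 20 of these cells. Border macrophage markers summed to 0 and 183 CPM in the WT young mice, 6.92 and 81.3 in the KO young mice, 1043 in the WT old mouse with enough cells and 363 in the KO old one. Their part in the class I differences was not tested.

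Of 5 MHC class II genes tested in the same fit, 2 passed, both lower in KO. Cd74, the invariant chain, had 268 and 287 CPM in WT young and 55.4 and 109 CPM in KO young (log2 change -1.65, SE 0.29, adjusted p = 7.87e-06). H2-Aa, a class II heavy chain, passed (adjusted p = 0.0166) with 0 UMIs in both KO young mice against 1 and 40 in those of WT young, and its UMIs came almost wholly from 1 mouse.

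In olfactory ensheathing glia-like cells 1 member was called lower without interferon receptors at each age, B2m in old and Tap1 in young mice. B2m measured 92.8 and 94.0 CPM in WT old and 52.2 and 51.4 CPM in KO old, and the groups lay apart with little spread within them. Its log2 change was -0.78 (SE 0.14, adjusted p = 0.0124), in a comparison that called 0.397% of 10085 genes. Over 14 alternatives B2m stayed between -1.19 and -0.77 and passed in 8, losing the call under DESeq2, with mitochondrial UMIs under 5%, without cells holding other cell types' marker UMIs, and without WT old mouse 1, WT old mouse 2 or KO old mouse 2. In the young mice B2m was 73.4 and 68.4 CPM in WT against 44.0 and 30.8 CPM in KO, a difference of the same direction that did not pass (-0.87, SE 0.24, adjusted p = 0.124).

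Tap1 was the call in the young mice, where 0.575% of genes were called. It measured 34.3 and 22.1 CPM in WT young against 6.10 and 6.16 CPM in KO young, with a log2 change of -2.15 (SE 0.48, adjusted p = 0.0491). In the old mice Tap1 was 13.6 and 16.3 CPM in WT against 6.79 and 3.87 CPM in KO and did not pass (-1.46, SE 0.36, adjusted p = 0.120). These levels rest on 7 to 35 UMIs per mouse. Over 12 alternatives the young difference stayed between -2.43 and -1.26 and passed in 6, and it lost the call without any 1 of the 4 young mice, at a hashtag posterior of 0.9 and with mitochondrial UMIs under 5%.

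Most of the other differences had the same sign. In young mice 9 of 9 tested members were lower in KO, with a median log2 difference of -0.87 against 0.013 over all genes, and 8 had an unadjusted p under 0.05, as did 1117 of all 10085 genes. In old mice 8 of 9 were lower, with a median of -0.32 against -0.00067, and 3 had an unadjusted p under 0.05, as did 812 of all 10085 genes. With no low-count filter Tap2, Psmb8 and Psmb9 passed in the young mice and Tap1 and Psmb8 in the old. Psmb9 also passed in the young without WT young mouse 2 (-3.97, adjusted p = 0.0385), and Psmb8 in the old without KO old mouse 2 (-2.05, adjusted p = 0.0472). Psmb8 measured 27.6 and 22.3 CPM in WT old against 5.74 and 10.9 CPM in KO old (-1.44, SE 0.33, adjusted p = 0.0728). H2-K1 was 318 and 328 CPM in WT young against 238 and 239 in KO young, whereas WT old had 361 and 336 and KO old 326 and 335 CPM, which nearly meet.

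Some other genes of the pathway also fell in the old KO mice of this class. Irf9, a part of the transcription factor complex of type-I interferon, changed by a log2 value of -1.61 (SE 0.27, adjusted p = 0.00507) and Stat2, its partner, by -1.03 (SE 0.22, adjusted p = 0.0422). H2-T23, which encodes the nonclassical chain Qa-1, was 137 and 101 CPM in WT old against 39.1 and 38.0 in KO old (-1.55, SE 0.16, adjusted p = 1.09e-05). It was the only call among 9 other class I and class I-like chains tested, whose median was -0.18.

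Values that moved with genotype in this class are given for comparison. Endothelial markers summed to 539 to 629 CPM in WT young and 795 to 831 in WT old, against 395 to 396 in KO young and 390 to 667 in KO old, nearly all from Cldn5, which also leads the ensheathing glia clusters, while Ly6c1 was at 0 in every mouse and Flt1 in those of 3 groups. Among cells holding no microglial or endothelial marker UMI, 396 of 1517, B2m differed by -1.19 in old mice and did not pass (adjusted p = 0.439). Near-empty barcodes held B2m at 41.1 CPM in WT old and 16.3 in KO old, and at 16.4 CPM in WT young. In KO young the 9.19 CPM rest on 2 UMIs (95% exact Poisson interval 1.11 to 33.2 CPM). The part of free RNA in the B2m difference was not tested.

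Ageing gave no call among the members in this class, in fits that called 2.03% of genes in WT and 0.278% in KO. The nearest was H2-K1 in KO, at 238 and 239 CPM in young and 326 and 335 CPM in old mice (0.48, SE 0.11, adjusted p = 0.0532), which passed with doublets kept (adjusted p = 0.0235) and with no low-count filter (adjusted p = 0.00744). In WT 5 of 9 members were lower in old mice and 4 higher, and in KO 7 of 9 were higher. The difference between the age changes of KO and WT was called for 0% of genes by edgeR, where 997 had an unadjusted p under 0.05 and DESeq2 called 20, and for none of the members.

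**Figure D4:**
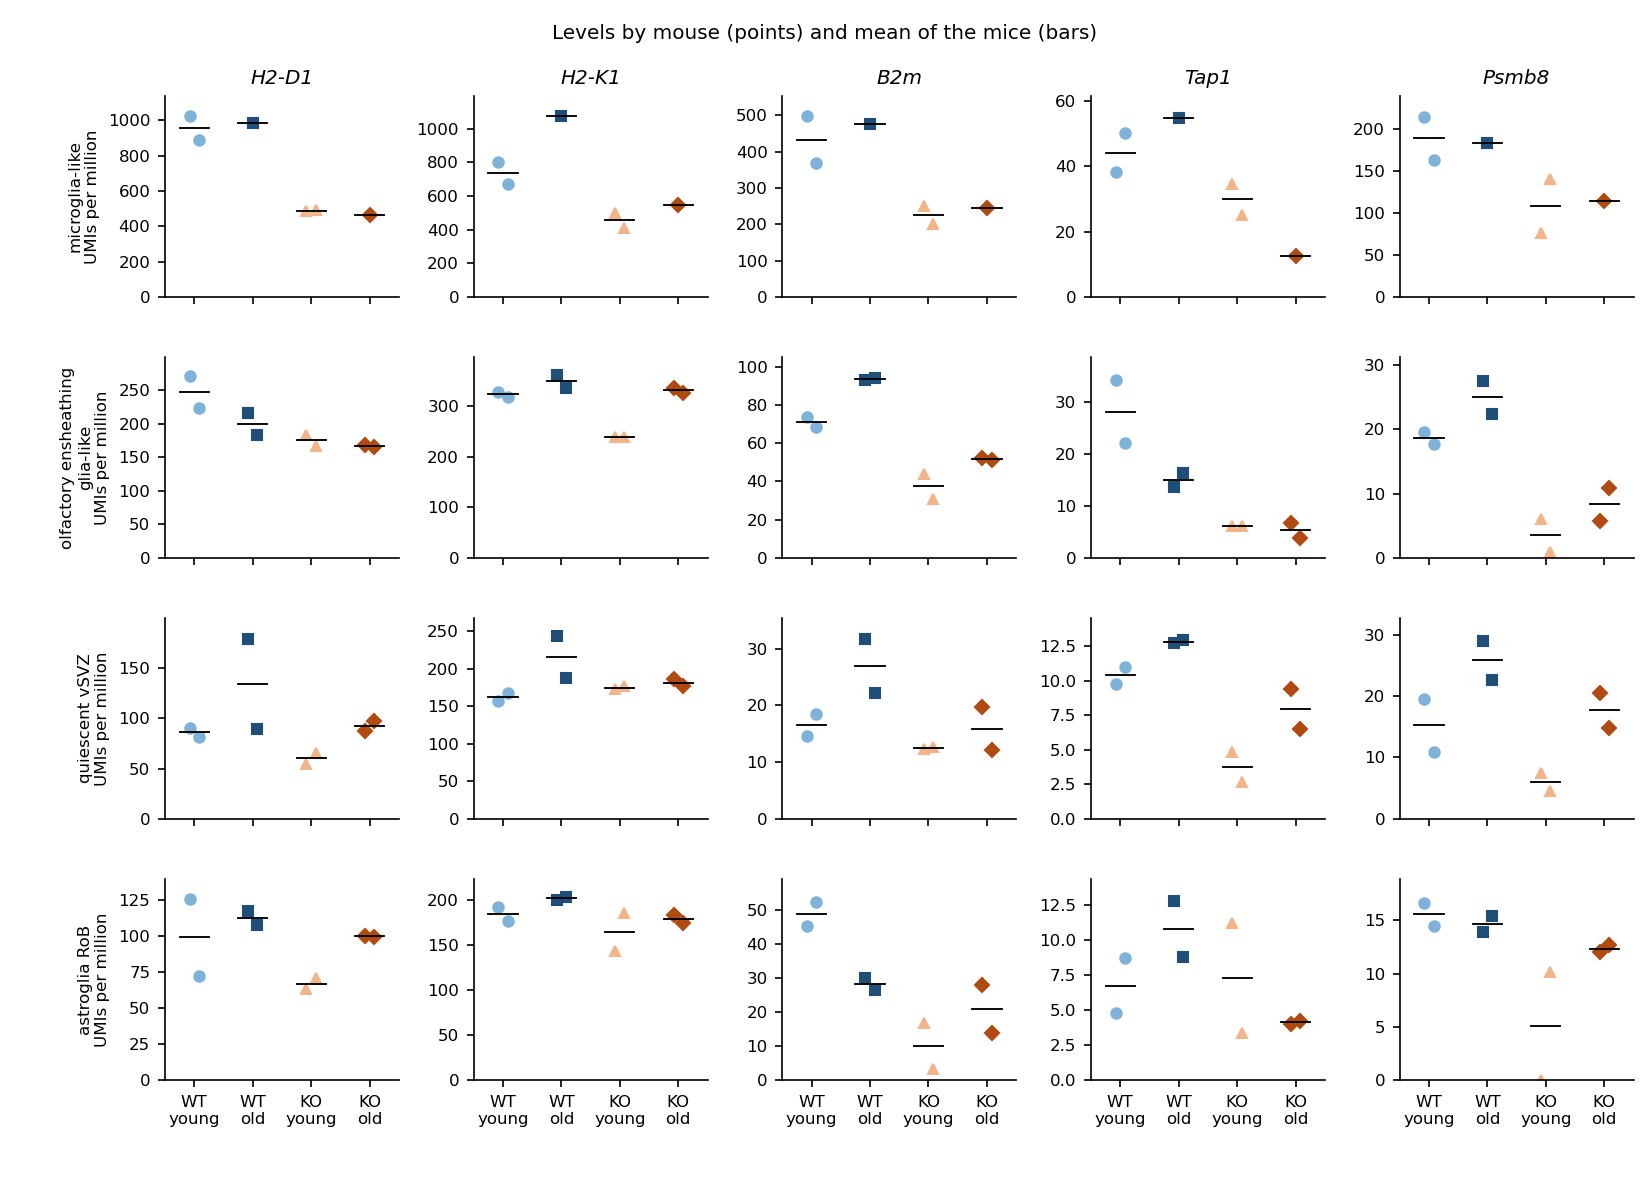
Level of H2-D1, H2-K1, B2m, Tap1 and Psmb8 (CPM) by group in microglia-like, olfactory ensheathing glia-like, vSVZ quiescent and RoB astroglial cells, 1 point per mouse with at least 20 cells, with the mean of the mice as a bar. H2-D1 lies apart by genotype in young microglia-like cells (1025 and 887 against 484 and 493), and so does B2m in old ensheathing glia (92.8 and 94.0 against 52.2 and 51.4).

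In quiescent NSC-like cells of the vSVZ, H2-K1 rose with age in WT, and Psmb8 and H2-D1 rose with age in KO. H2-K1 measured 156 and 168 CPM in WT young and 243 and 188 CPM in WT old, which did not overlap. Its log2 change was 0.36 (SE 0.12, adjusted p = 0.0385), in a comparison that called 15.8% of 10455 genes, so that 1 called member of 9 tested is no higher share than that of all genes. Over 16 alternatives the change stayed between 0.11 and 0.55 and passed in 7, losing the call at cluster resolutions 0.5 and 2, without the eYFP-rich cluster, without cells holding other cell types' marker UMIs, with cells of any hashtag, under DESeq2 and without WT young mouse 1, WT young mouse 2 or WT old mouse 1. In KO, H2-K1 was 173 and 177 CPM in young and 186 and 177 CPM in old mice, which lie within the spread of each other. Free H2-K1 RNA, read from near-empty barcodes, was higher at the older age in both genotypes. For WT it stood at 176 against 61.7 CPM. For KO it stood at 131 against 69.0 CPM, the latter on 15 UMIs. The part of free RNA in the H2-K1 rise was not tested.

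Psmb8 and H2-D1 rose with age in KO, where 4.6% of genes were called. Psmb8 was 7.55 and 4.51 CPM in KO young and 20.5 and 14.8 CPM in KO old (1.60, SE 0.35, adjusted p = 0.00515), on 10 to 50 UMIs per mouse. H2-D1 was 55.0 and 65.3 CPM in KO young and 87.6 and 97.8 CPM in KO old (0.64, SE 0.19, adjusted p = 0.0492). The old and young KO mice did not overlap for either gene, nor for Tap1 and Psmb9, which were not called. Over 16 alternatives Psmb8 stayed between 1.24 and 2.60 and passed in 12, losing the call under DESeq2, without cells holding other cell types' marker UMIs and without mouse 2 of KO young or mouse 1 of KO old. H2-D1 stayed between 0.53 and 0.77 and passed in 8, losing it under DESeq2, without those cells, at a hashtag posterior of 0.9, at cluster resolution 0.5 and without any 1 of the 4 KO mice.

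In WT the changes of both genes had the same sign and did not pass. Psmb8 was 19.6 and 11 CPM in WT young and 29.0 and 22.6 CPM in WT old (0.81, SE 0.34, adjusted p = 0.101), and H2-D1 was 90.5 and 81.5 against 179 and 89.6 CPM (0.56, SE 0.20, adjusted p = 0.0598). H2-D1 passed in WT without cells holding other cell types' marker UMIs (0.73, adjusted p = 0.0355), with no low-count filter (0.59, adjusted p = 0.00283) and without WT old mouse 2 (1.05, adjusted p = 6.89e-05). The age changes of WT and KO were not shown to differ: the difference was 0.79 for Psmb8 (SE 0.50, adjusted p = 0.506), 0.08 for H2-D1 (SE 0.28, adjusted p = 0.938) and -0.29 for H2-K1 (SE 0.16, adjusted p = 0.444), where 1.4% of genes were called. All 9 tested members had a positive age change in WT, with a median of 0.40 against 0.012 over all genes, and 7 of 9 in KO, with a median of 0.37 against 0.00030.

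Genotype alone gave no call among the 9 members in these cells, where 3.16% of genes were called in young and 0.249% in old mice. In the young mice Tap1 (-1.49, SE 0.49, adjusted p = 0.0998) and Psmb8 (-1.25, SE 0.42, adjusted p = 0.101) were nearest, and 5 of 9 differences were negative. In the old mice 9 of 9 were negative, with a median of -0.41 against -0.0047 over all genes, and 3 had an unadjusted p under 0.05, as did 827 of all 10455 genes. Psmb8 passed in the young with quiescent cells of any hashtag (-1.38, adjusted p = 0.0413), and H2-D1 in the old without WT old mouse 2 (-0.89, adjusted p = 0.00417).

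In WT old mouse 1, few cells held much of the H2-D1. Of the 150 quiescent vSVZ cells of WT old mouse 1, 3 held at least 10 H2-D1 UMIs each, and together 88 of its 197 H2-D1 UMIs. Without these 3 cells, picked after their values were seen, that mouse measured 101 CPM. The cells held H2-K1 at 1264, B2m at 326 and Psmb9 at 245 CPM, 0 microglial and 1 endothelial marker UMI, and lay in the eYFP-rich cluster described next.

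The quiescent class held several clusters whose shares changed with age. Cluster 5, led by Prss56, Thbs4 and Ecel1 and richest in eYFP, took 54.3%, 17.0%, 40.6% and 19.7% of vSVZ quiescent cells. Cluster 1, led by Crym, Clu and Cldn10, took 34.2%, 57.4%, 43.1% and 51.1%. H2-D1 was higher in cluster 5 than in cluster 1 in all 8 mice, for example 119 against 40.7 and 105 against 50.9 CPM in the WT young mice. The gap was small in KO young mouse 2, at 71.5 against 64.9 CPM. Cluster 18, whose called cells were nearly all from RoB, held H2-D1 at 304 CPM in the WT old library, against 274 CPM in cluster 5.

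Psmb8 was higher in old than in young mice of both genotypes within each of these clusters, which was not tested. In cluster 1 it was 5.08 and 3.64 CPM in the young against 14.9 and 13.1 in the old WT mice, and 3.86 and 0 in the young against 17.0 and 18.8 in the old KO mice. The young values there rest on only 2 and 2 UMIs in WT and on 4 and 0 in KO. In cluster 5 Psmb8 was 29.9 and 16.8 CPM in the young against 74.0 and 66.3 in the old WT mice, and 12.3 and 9.33 in the young against 37.3 and 21.1 in the old KO mice. These values rest on 9 to 20 UMIs per mouse. Without cluster 5 the fitted age change of Psmb8 in KO was 2.52 (adjusted p = 0.00907), that of H2-D1 in KO 0.62 (adjusted p = 0.0492) and that of H2-K1 in WT 0.26, which no longer passed (adjusted p = 0.380).

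Other genes of the pathway fell with age in WT quiescent cells, in the fit that called 15.8% of all genes (745 higher and 909 lower). Of 9 other loading and trimming genes tested, 3 fell and 1 rose: the loading-complex disulphide isomerase Pdia3 (-0.76, SE 0.10, adjusted p = 1.09e-06), the chaperones Calr (-0.35) and Canx (-0.31), and the trimming peptidase Lnpep (0.68). Both Psme2 (-0.73), a subunit of the proteasome activator, and Pomp (-0.40), a proteasome assembly factor, fell among 5 genes tested, as did the constitutive subunits Psmb6 (-0.58) and Psmb5 (-0.36) among 3. In KO none of these lists gave a call with age. The age change of Pdia3 differed between genotypes (0.73, SE 0.13, adjusted p = 0.00227). It measured 458 and 407 CPM in the young WT mice against 266 and 248 CPM in the old ones, whereas the 4 KO mice held 335 to 349 CPM. Pdia3 was also higher in KO than in WT among the old mice (0.43, SE 0.09, adjusted p = 0.0353).

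Pdia3 (-0.71, adjusted p = 0.00731) and Pomp (-0.56, adjusted p = 0.0426) also fell with age in WT ensheathing glia, and Pdia3 fell in WT RoB astroglia (-0.68, adjusted p = 0.0189). Psmb6 (-0.62, adjusted p = 0.00640) and Pomp (-0.56, adjusted p = 0.0421) fell with age in WT neuroblast-like cells. Of 7 other class I and class I-like chains tested in quiescent cells none passed in any comparison, with medians of 0.27 for age in WT and 0.39 for age in KO.

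The remaining classes gave no call among the members in the fits as described. In RoB astroglia 6 members could be tested, in fits that called 1.39% of genes for age in WT, 0.139% for age in KO, 0.376% for genotype in young, 0.0418% for genotype in old and 0.0557% for the difference of the age changes. B2m came nearest there, at 45.2 and 52.1 CPM in WT young and 3.37 and 16.8 CPM in KO young (-2.0, SE 0.53, adjusted p = 0.109), and it passed with no low-count filter (adjusted p = 0.0353). The KO young levels rest on few B2m UMIs. The RoB astroglia of KO young mouse 1 and mouse 2 held 537149 and 296921 UMIs of all genes, in 65 and 40 cells. In neuroblast-like cells H2-D1, Tapbp and Psmb10 could be tested, in fits that called 3.55%, 0.469%, 1.73%, 0.19% and 0.615% of genes in the same order. In activated NSC-like cells 4 members could be tested for age in KO and for genotype in young mice, in fits that called 0.107% and 0.0357% of genes. H2-K1 passed there for age in KO without KO young mouse 1 (2.60, adjusted p = 0.0168).

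**Figure D5:**
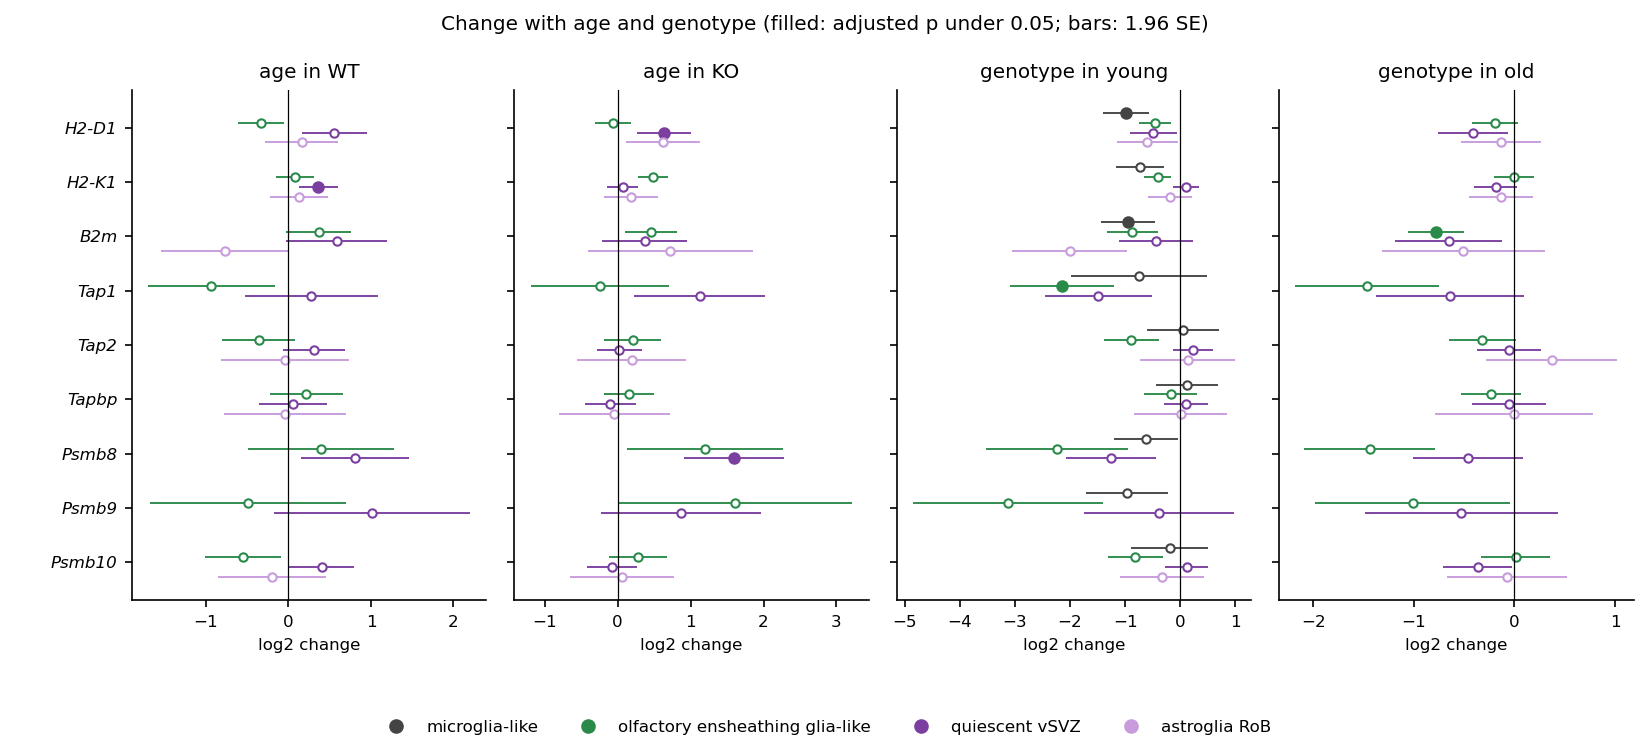
Fitted log2 change of each tested member for age in WT, age in KO, genotype in young and genotype in old, coloured by cell class, with 95% intervals as bars and filled points for adjusted p under 0.05. The 7 filled points are H2-K1, Psmb8 and H2-D1 in ageing quiescent cells, Tap1 and B2m by genotype in ensheathing glia, and H2-D1 and B2m by genotype in young microglia-like cells.

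Across 20 pairs of class and library (5 classes with at least 50 cells in all 4 libraries), the genes whose log2(CPM + 5) was most like that of each chain were listed out of 3685 genes with a mean of at least 50 CPM, a limit that leaves B2m itself out of the lists of the other chains. For B2m the closest was H2-D1 (Pearson r = 0.97), then Gatm (0.95), Lifr, Scd1 and Matn4. For H2-D1, whose r with B2m is the 0.97 above, the listed genes were Gatm (0.97), Dnajc1, Matn4, Bmp7 and Aqp11, and for H2-K1 Dag1 (0.99), Tm7sf3, Chpt1, Rrbp1 and Notch2. The points of a library share its depth and its free RNA, so these values are descriptions.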

How the data were processed

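The members and the gene lists were chosen with earlier results of these data known. All members are reported, and other pathway genes are named where called, at most 8 per comparison by size of change. UMI counts per gene and cell were deposited by the authors, who filtered index hopping, counted reads with kallisto and bustools against GRCm38 and counted hashtags with CITE-seq-Count, and the submitters' processing notes name Scanpy 1.6.0. Other aligner settings are not given in the sources used here.

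Of 844265 barcodes, cells with 1000 to 20000 UMIs, 100 to 6000 genes and under 10% mitochondrial UMIs were kept (18390), and 339 doublets called by Scrublet were removed. Cells were clustered with scanpy 1.11.5 (2000 variable genes, 50 components, 15 neighbours, leidenalg 0.10.2 at resolution 1) without the members, the pathway lists, the interferon list, mitochondrial genes and transgenes, and named "X-like" from markers. Hashtags were called by a multinomial mixture. One hashtag library whose group the labels do not give was left out.

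Counts were summed per mouse and class (at least 20 cells) and fitted with edgeR 4.0.16 in R 4.3.3 (glmQLFTest, filterByExpr, TMM), with p-values adjusted over all genes tested. Log2 changes are on edgeR's scale with its prior count, and SE is the change divided by the root of F. Mice are separate animals, but p-values rest on 2 per group and 1 reaction each. Levels were not compared between genes. Class and tissue pairs used scipy 1.17.1 and a pseudocount of 5 CPM. In simulated data of 200 genes changed by a log2 of 1, 57% and 62.5% were recovered in the quiescent fit of 10455 genes (age in WT, genotype in old), and 45.5% and 65.5% in that of 10085 genes in ensheathing glia. Of 15 other class I genes, 14 were found in the matrices. Alternatives were other cluster resolutions, cell and gene filters, hashtag thresholds, pseudocounts, normalization, DESeq2 1.42.0 and leaving out each mouse. Promoter sequences and positions came from RefSeq and GENCODE on GRCm38. Poisson, Clopper-Pearson and floor values (3 counts) cover counting error only. Some results of the transcription factor list are not reported here.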

Additional observations from a re-analysis of the deposited data

How the results depend on the processing

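Each called member kept its sign in every alternative run for it, and no result reversed. Counts of called members changed as follows. In vSVZ quiescent cells the 1 call for age in WT became 0 at cluster resolution 0.5, at resolution 2, without the eYFP-rich cluster, with cells of any hashtag and under DESeq2, and 2 with no low-count filter. The 2 calls for age in KO became 1 at a hashtag posterior of at least 0.9 and at resolution 0.5, and 0 without cells holding microglial or endothelial marker UMIs (1182 of 1996 cells left) and under DESeq2. The 0 calls for genotype in young became 1 with cells of any hashtag. In RoB astroglia the 0 calls for genotype in young became 1 with no low-count filter. In ensheathing glia the 0 calls for age in KO became 1 with doublets kept and with no low-count filter. There the 1 call for genotype in young became 0 at a posterior of at least 0.9, with mitochondrial UMIs under 5%, without cells holding marker UMIs (where Tap1 was not tested) and under DESeq2 (where Tap1 had no adjusted p), and 4 with no low-count filter. The 1 call for genotype in old became 0 with mitochondrial UMIs under 5%, without cells holding marker UMIs and under DESeq2, and 3 with no low-count filter. In microglia-like cells the 2 calls became 1 with doublets kept, with mitochondrial UMIs under 5% and with no low-count filter, and 0 under DESeq2. The cause of these changes was not tested.

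Leaving out 1 mouse at a time gave 0 to 2 calls for age in WT, 0 to 1 for age in KO and 0 to 1 for genotype in old in quiescent cells, 0 to 1 for genotype in either age in ensheathing glia, 0 to 1 for age in KO in activated NSC-like cells and 0 to 1 for genotype in microglia-like cells. Such fits assume that the lone mouse of a group varies like the others. Of the 40 class pair tests, 26 passed, 0 at a posterior of at least 0.9 and 0 to 26 with 1 mouse left out (26 without WT old mouse 2). Over all genes DESeq2 called fewer than edgeR in these comparisons: in quiescent cells 676 against 1654 (age in WT), 115 against 481 (age in KO), 177 against 330 (genotype in young) and 7 against 26 (genotype in old), in ensheathing glia 11 against 28 (age in KO) and 26 against 40 (genotype in old), in microglia-like cells 3 against 29, in RoB astroglia 30 against 100, 1 against 10, 10 against 27, 1 against 3 and 1 against 4 (age in WT, age in KO, genotype in young, genotype in old and the difference of the age changes), in neuroblast-like cells 103 against 242, 8 against 32, 47 against 118, 0 against 13 and 18 against 42 in that order, and in activated NSC-like cells 1 against 6 (age in KO). It called more for the difference of the age changes in ensheathing glia (20 against 0) and for genotype in young activated NSC-like cells (3 against 2). The DESeq2 count of 0 stood beside 126 genes at an unadjusted p under 0.05. Depth limits Nlrc5, Psmb9 and Tap1, and the small classes. Class and tissue differences were paired within mice. No paired analysis of age or genotype was possible, because the mice of different groups are different animals and each group had its own reaction. The numbers 1 and 2 therefore pair nothing between groups.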
